A study of Mus musculus with 8 samples.

Results

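CAGE clusters that started inside coding exons of ordinary length, away from every annotated transcript start, made up 5.73% of the clusters of wild-type mouse embryonic stem cells (1882 of 32857 in E14; 95% Wilson interval 5.48 to 5.98%), 5.75% of those of Pwwp2a/b double-knockout (DKO) clone A1 (1898 of 33005) and 5.80% of those of DKO clone C7 (1907 of 32870). A cluster was taken when its dominant transcription start site (TSS), the base with the most CAGE tags, lay over 500 bp from every same-strand transcript start and inside a same-strand coding feature of GENCODE vM21 on mm10, and when the longest annotated exon holding that base was under 1000 bp. Joined over the 3 lines wherever they shared at least 1 base on the same strand, these clusters formed 1949 sites of 33324 in all, in 803 genes. They made up 67.6%, 67.2% and 67.5% of all clusters in coding sequence in E14, A1 and C7, and the rest lay in exons of 1000 bp or more.

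CAGE-seq captures capped RNA and maps its first base, and here it was run on nuclear RNA without PCR amplification. The libraries came from the E14 line (wild type, 3 libraries) and from 2 clonal Pwwp2a/b DKO lines, A1 (2 libraries) and C7 (3 libraries), which lack the PWWP2A and PWWP2B proteins. Each knockout line is 1 clone, so an effect of the genotype and a property of a clone cannot be told apart within a line. The authors merged the libraries of each line and joined nearby clusters into consensus peaks, and the deposited clusters carry positions but no tag counts, so the comparisons below concern where starts were called and not how strong they were. No error between libraries could be computed. Intervals are 95% Wilson intervals of a share and cover counting error only, neighbouring sites of a gene are not independent, and the depth behind a cluster is unknown.

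The labels were checked against promoter clusters. All 14 embryonic stem cell markers examined, among them Pou5f1, Nanog and Sox2, had a promoter cluster in every line. Of 10 markers of other cell types, 4 (Sox17, Sox1, Neurod1 and Col1a1) had one in every line, and the other 6, among them Gata6, Ptprc and Alb, had none. Pwwp2a had a promoter cluster in all 3 lines, which does not check the knockout because a deleted gene can keep its promoter and the clusters carry no level. Pwwp2b had none in any line, E14 included, so its loss could not be checked either. The study states that both paralogs are expressed in mouse embryonic stem cells.

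Transcription by RNA polymerase II normally starts at a promoter, most often with a pyrimidine just before a purine at the first transcribed base, the initiator step. PWWP2A and PWWP2B bind histone H3 trimethylated at lysine 36, the mark laid down over the bodies of transcribed genes, and bring histone deacetylases there, and the question put to the lines with CAGE-seq was whether starts inside genes depend on these proteins. CAGE reports capped 5′ ends and does not by itself tell how an end arose.

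Sequences around the dominant TSS are shown for the sites of the 3 genes whose profiles the study displays and that held sites of this kind, since they show the bases that most sites shared. They were read from GENCODE transcripts 5′ to 3′, with 20 bases before and 24 after the TSS, and the capitals mark the last 2 bases before the TSS and the TSS itself. Hnrnpk, an RNA-binding protein of the nucleus, had 1 site on the minus strand at chr13:58399936-58399980 (mm10), in codon 30 of 464. Nap1l1, a histone chaperone, had 4 sites on the plus strand of chromosome 10, with dominant TSSs at positions 111490134, 111490157, 111492973 and 111493375 in E14, and Ptges3, a co-chaperone of HSP90, had 2 on the plus strand at chr10:128068687-128068731 and chr10:128074230-128074274. In 6 of these 7 sites both bases before the TSS were guanine. The windows of Nap1l1 codons 112 and 254 ran across an exon junction of the transcript.
Hnrnpk codon 30: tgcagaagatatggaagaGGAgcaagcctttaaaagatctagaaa
Nap1l1 codon 105: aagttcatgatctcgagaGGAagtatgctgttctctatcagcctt
Nap1l1 codon 112: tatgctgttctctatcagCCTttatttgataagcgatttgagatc
Nap1l1 codon 254: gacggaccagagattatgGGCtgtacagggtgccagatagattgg
Nap1l1 codon 283: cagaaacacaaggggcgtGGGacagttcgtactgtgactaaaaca
Ptges3 codon 13: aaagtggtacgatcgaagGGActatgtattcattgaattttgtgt
Ptges3 codon 135: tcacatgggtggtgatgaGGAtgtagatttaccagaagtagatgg

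The first 5 sites by position that both DKO clones held and E14 did not are shown next, because they are the sites on which a difference between the lines would rest. They lay in Prrc2c (chr1:162710333-162710377, minus strand), Brd3 (chr2:27456975-27457019, minus strand), Ubr4 (chr4:139468116-139468160, plus strand), Rfc1 (dominant TSS of A1 at chromosome 5 position 65311147, minus strand) and Ep400 (chromosome 5 position 110673284, minus strand). The windows of Rfc1 and Ep400 ran across an exon junction of the transcript.
Prrc2c codon 575: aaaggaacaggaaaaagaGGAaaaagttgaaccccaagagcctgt
Brd3 codon 374: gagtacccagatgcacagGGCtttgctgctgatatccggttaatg
Ubr4 codon 4382: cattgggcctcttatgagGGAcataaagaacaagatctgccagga
Rfc1 codon 74: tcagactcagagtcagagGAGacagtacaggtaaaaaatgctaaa
Ep400 codon 2630: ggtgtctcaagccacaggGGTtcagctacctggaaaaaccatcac

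The last set shows sites whose dominant TSS was the first base of an exon in all lines, where the 2 bases before it belong to the preceding exon of the spliced transcript and not to the adjoining genome. The first 5 of 7 by position were in Nop58 (chromosome 1, plus strand, TSS at 59707003), Bod1l (chromosome 5, minus strand, 41828919), Slc25a4 (chromosome 8, minus strand, 46207620), Ewsr1 (chromosome 11, minus strand, 5093732) and Npm1 (chromosome 11, minus strand, 33161225). In 4 of these 5 windows the bases that end the preceding exon were both guanine.
Nop58 codon 403: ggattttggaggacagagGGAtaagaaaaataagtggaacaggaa
Bod1l codon 440: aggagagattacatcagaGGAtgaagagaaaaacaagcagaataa
Slc25a4 codon 247: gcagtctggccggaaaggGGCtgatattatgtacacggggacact
Ewsr1 codon 17: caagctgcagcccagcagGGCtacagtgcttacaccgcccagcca
Npm1 codon 47: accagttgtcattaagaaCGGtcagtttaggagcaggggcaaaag

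Most dominant TSSs in short coding exons followed 2 guanines. The share was 66.3% in E14 (1204 of 1815 clusters with both bases in the exon; 64.1 to 68.5%), 64.9% in A1 (1184 of 1824) and 66.8% in C7 (1227 of 1836), and the 3 intervals overlapped. Among all positions of the same E14 exons the share was 6.86% (n = 345130 positions). Guanine stood 2 bases before the TSS in 82.0% of E14 clusters and 1 base before it in 76.8%. Further upstream, the base 3 before the TSS was guanine in 57.2% and adenine in 33.5%, and the base 4 before it was guanine in 49.5%. Past the start, adenine took the fourth transcribed base in 57.4%, and 38.7% of clusters had both the 2 guanines and this adenine. The TSS base itself was adenine in 39.9%, guanine in 25.2%, thymine in 19.9% and cytosine in 15.0%.

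**Figure D1:**
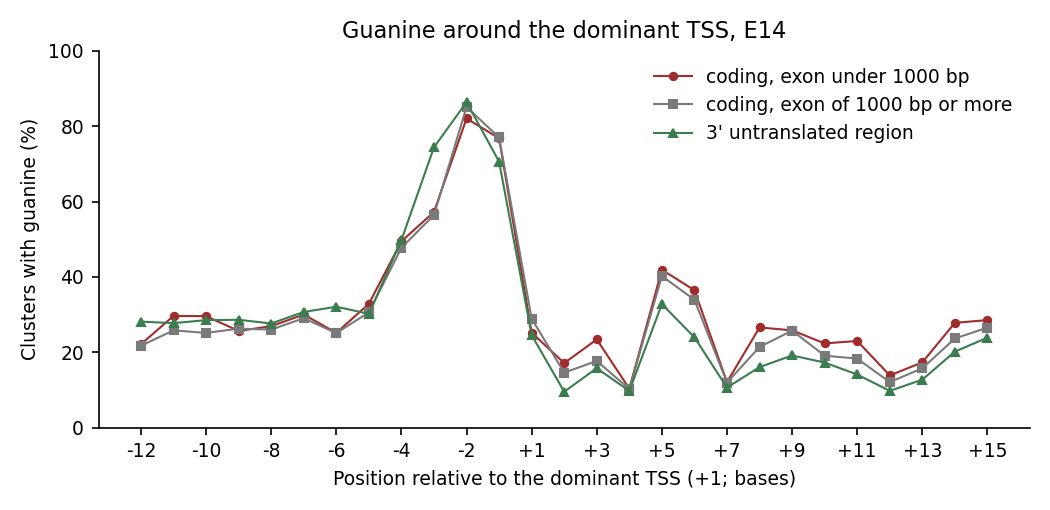
Share of E14 clusters with guanine (y axis, percent) at each position around the dominant TSS. The x axis (bases) runs from 12 bases before the TSS, which is +1, to position +15. The classes are coding starts in short exons, coding starts in long exons and starts in 3′ untranslated regions. All 3 classes peak 2 bases before the TSS, where short exons reach 82.0%, and fall back at the TSS.

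The pyrimidine-purine step was rare at these starts. It was present in 9.14% of E14 clusters (171 of 1870), 9.18% in A1 and 8.98% in C7, against 20.97% of all positions in the same E14 exons. A guanine just before the TSS excludes the step, and 76.8% of E14 clusters had that guanine. The low share of the step is therefore not a feature separate from the guanines. Bases of promoter clusters were read from RefSeq promoter windows, which covered 8253 of 19872 in E14 (41.5%). There the step was found in 82.2% and 2 preceding guanines in 5.06%. Moving the position by 1 base upstream or downstream left the step in 1.66% and 2.96% of those promoter clusters. The dominant TSS was thus placed at the right base there. Exon bases came from GENCODE transcripts, a reading that the promoters do not check. Among short-exon clusters, the narrowest stood apart in both shares, which are tied through the guanine just before the TSS. Clusters with an interquantile width of 1 or 2 bp had 2 preceding guanines in 78.7% and the step in 2.96%, those of 3 to 10 bp in 57.5% and 11.3%, and those over 10 bp in 58.7% and 14.5%, so the guanine share did not fall further beyond 10 bp. In all, 97 E14 clusters (5.15%) had both the step and a width over 10 bp.

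Starts in long coding exons and in 3′ untranslated regions shared these features. The share after 2 guanines was 68.3%, 66.4% and 67.7% in long exons of E14, A1 and C7 and 65.1%, 64.9% and 64.3% in 3′ untranslated regions. Chromosome by chromosome, the share in short exons ran from 55.8 to 82.5% in E14 and was above that of long exons on 9 of 20 chromosomes. Adenine at the TSS was the first base of 39.9% of short-exon clusters, 34.7% of long-exon clusters and 19.5% of those in 3′ untranslated regions of E14, where thymine led with 42.3%. The combination of 2 guanines with adenine at the fourth base was found in 38.7%, 40.98% and 22.4%. The base composition of the 3 classes was not matched, so its part in these differences was not tested.

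Within exons, starts gathered at bases 2 and 3. In E14, 12 clusters had their dominant TSS at base 1 of the longest exon, 55 at base 2, 49 at base 3 and 17 at base 4. A1 had 14, 60, 47 and 21, and C7 had 13, 58, 46 and 25. Over bases 4 to 40 the count per base ran from 4 to 23 in E14 with a median of 10, from 4 to 21 in A1 with a median of 11, and from 4 to 25 in C7 with a median of 11. Bases 2 and 3 thus stood above every later base to 40 in all lines, and base 1 did not. The first 10 bases held 10.3% of E14 clusters (194 of 1882; 9.01 to 11.8%), 10.7% of A1 clusters and 10.8% of C7 clusters. In exons of 1000 bp or more they held 2.22%, 1.94% and 2.28%, and short exons were higher on 20 of 20 chromosomes in each line, a direction that the shorter exons of the rule itself favour.

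**Figure D2:**
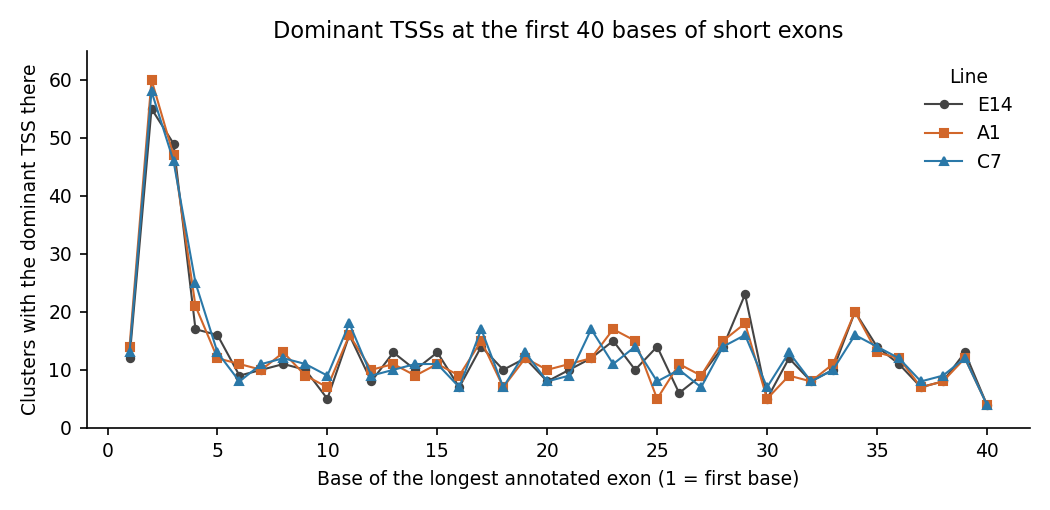
Number of clusters (y axis) whose dominant TSS is at each of the first 40 bases of the longest annotated exon (x axis, bases), with 1 line of points for E14, A1 and C7. In all lines bases 2 and 3 stand out, with 55 and 49 clusters in E14 against a median of 10 over bases 4 to 40.

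The spliced sequence before these exon-start TSSs carried the same 2 guanines. Read in the representative coding transcript, 10 of 13 E14 clusters at base 1 followed 2 guanines that both belonged to the preceding exon. At base 2, where the first guanine ends the preceding exon and the second opens the new one, it was 53 of 58 (91.4%; 81.4 to 96.3%), and at base 3, where both are in the exon, 32 of 49 (65.3%). Over all exons after the first of the same transcripts (n = 13495) the shares at bases 1, 2 and 3 were 6.55%, 40.5% and 8.003%. The clones gave 9 of 15 and 11 of 14 at base 1, 57 of 63 and 53 of 61 at base 2, and 30 of 48 and 32 of 46 at base 3 in A1 and C7. The windows of Nop58, Bod1l, Slc25a4 and Ewsr1 printed above are examples at base 1. Introns of vertebrate genes nearly always end in adenine and guanine, but the genome beside these exons was not read here, and the guanines given for base 1 are those of the spliced transcript.

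The exons themselves were mostly internal coding exons, along the whole gene. Their median length was 176.5 bp in E14 (quartiles 124 and 342, range 18 to 996) and the dominant TSS lay a median of 79 bp from the exon start (quartiles 33 and 140). By exon number in the transcript with the longest exon, 43.3% were in exons 2 to 5, 26.2% in exon 12 or later and 2.44% in exon 1, with a median of 6 and a highest number of 223. In the representative coding transcript 95.9% were in internal exons. For 13.9% of E14 clusters the longest exon came from a transcript annotated as retained intron. The nearest annotated start was a median of 3504 bp away. The median start lay 43.7% of the way along the coding sequence, and of 10 equal parts of the coding sequence each of the first 8 held 9.67 to 13.3% of E14 clusters, the next 8.29% and the last 4.04%. A1 and C7 gave medians of 175.5 and 177 bp for exon length, 79 and 80 bp for the distance and 6 for exon number in both.

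Codon base 2 held the largest share of the starts, as it did of all coding positions after 2 guanines. In E14 the dominant TSS was base 1 of a codon in 24.8% of clusters, base 2 in 43.9% and base 3 in 31.3% (n = 1869). Clusters after 2 guanines had 22.2%, 49.4% and 28.4% (n = 1194), and all coding positions after 2 guanines in the same coding sequences had 22.96%, 46.2% and 30.8% (n = 146998). In E14 the intervals of the clusters took in the share of all such positions at codon bases 1 and 3, and at base 2 the interval of 46.6 to 52.2% lay just above it. After 2 guanines base 2 held 49.8% of A1 clusters (46.97 to 52.7%, against 46.1% of all such positions) and 50.04% of C7 clusters (47.2 to 52.8%, against 46.2%), above it in both. Base 3 held 29.1% in A1 (26.6 to 31.8%, against 30.9%) and 27.6% in C7 (25.2 to 30.2%, against 30.9%), so that it lay below in C7. The codon that held the TSS encoded glycine in 25.1% of E14 clusters, against 6.01% of all codons of the same coding sequences. It encoded glutamate in 17.2% against 8.67%, aspartate in 9.74% against 5.26%, alanine in 10.2% against 6.89% and valine in 10.1% against 5.79%. Codons of these amino acids all begin with guanine, so a TSS at codon base 2 after a guanine lies in such a codon. Leucine (3.37% against 8.79%), serine (3.75% against 8.59%), lysine (4.07% against 7.23%) and arginine (3.37% against 5.87%) were lower than among all codons. Amino acids at all positions after 2 guanines were not compared. Glycine codons all begin with 2 guanines, as the printed windows of Brd3 and Ewsr1 show.

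**Figure D3:**
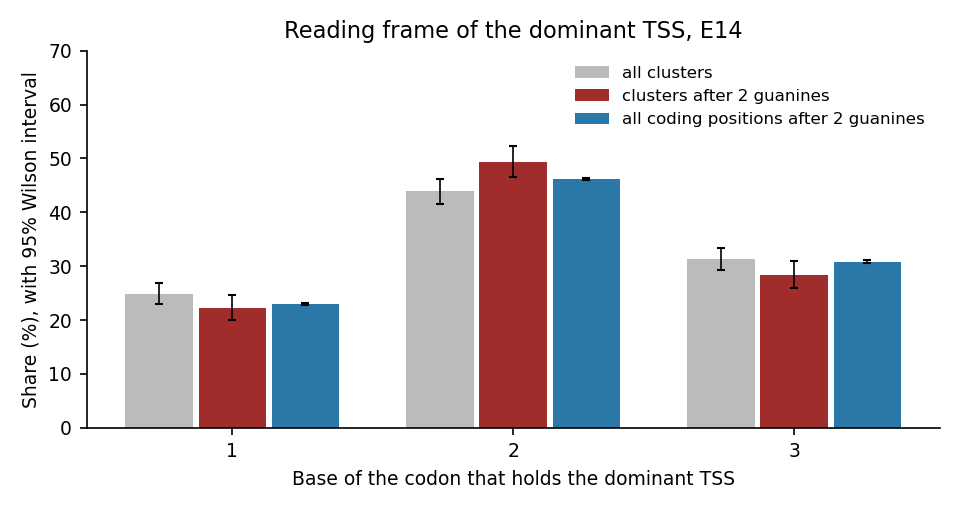
Share (y axis, percent, bars with 95% Wilson intervals) of E14 clusters whose dominant TSS is base 1, 2 or 3 of a codon (x axis), for all clusters, for clusters after 2 guanines and for every coding position after 2 guanines in the same coding sequences. Base 2 leads in all 3, at 43.9%, 49.4% and 46.2%.

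The capped ends at these sites were narrowly spread. The interquantile width, the span between the 0.1 and 0.9 quantiles of the tags of a cluster, had a median of 5 bp in each line (quartiles 2 and 17.75 bp in E14), against 20 bp at E14 promoters and 21 bp at those of A1 and C7. It was 1 or 2 bp in 39.9% of E14 clusters, 39.1% of A1 clusters and 40.2% of C7 clusters. The median was 4 bp in long exons and 2 bp in 3′ untranslated regions. After 2 guanines the E14 median was 3 bp (n = 1204), and it was 9 bp otherwise (n = 611).

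**Figure D4:**
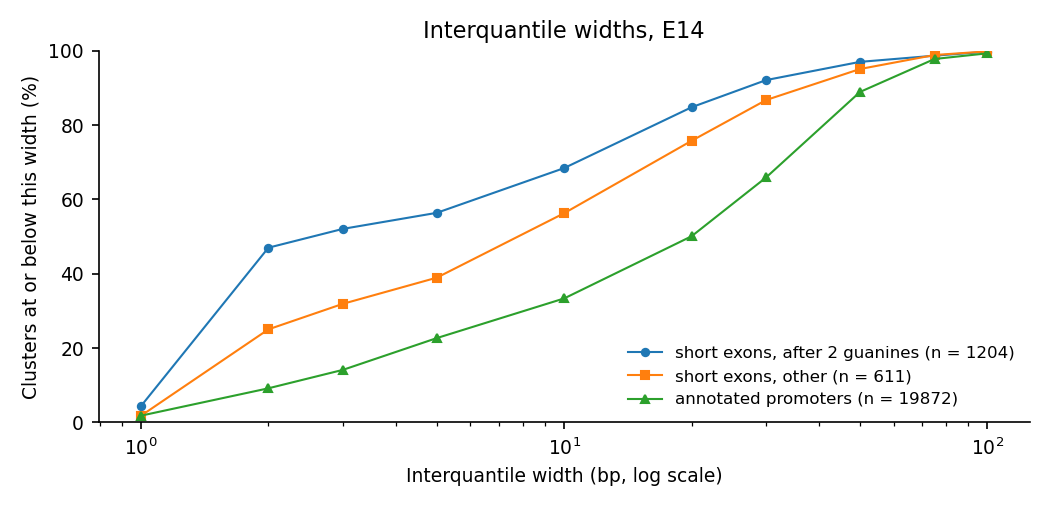
Share of E14 clusters (y axis, percent) with an interquantile width at or below the value on the x axis (bp, log scale), for short-exon starts after 2 guanines, other short-exon starts and annotated promoters. At 2 bp the first curve has reached 47.01%, and the promoter curve is lowest from there on.

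A minority of sites was broad, and the 5 widest of those found in all lines lay in Prrc2c, Taf1d, Anp32b, Hsp90ab1 and Eif3a. The site in exon 12 of 35 of Prrc2c, which encodes a stress granule protein, covered chr1:162710450-162710708 on the minus strand and had an interquantile width of 189 bp in E14, 189 bp in A1 and 195 bp in C7 around the same dominant TSS. Taf1d, a subunit of the RNA polymerase I selectivity factor, had 120, 108 and 105 bp at chr9:15308670-15308809, and Anp32b, an acidic nuclear phosphoprotein, had 119, 106 and 105 bp at chr4:46469873-46470005. The site of the chaperone Hsp90ab1 at chr17:45571020-45571177 had 103 bp in each line. Eif3a, a scaffold subunit of translation initiation factor 3, had 98 bp in each line at chr19:60769870-60770019. The dominant TSS of the Taf1d site was 15308686 in both E14 and A1 but 15308727 in C7, and the other 4 sites kept theirs.

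A small set of genes held many sites. Of 803 genes, 442 (55.0%) had 1 site, 99 had 5 or more and together held 42.1% of the sites, and 26 had 10 or more. Prrc2c led with 23 sites in 12 exons, 22 of them in all lines. Eif3a had 21 in 7 exons, the AAA ATPase Mdn1 of ribosome biogenesis 17, the replication fork protein Bod1l 16, and Eif5b, the GTPase that joins ribosomal subunits, Nasp, a histone chaperone, and Tpr, a nuclear pore protein, 15 each. Chd4, the remodelling ATPase of NuRD, Hnrnpu, a nuclear RNA-binding protein, and Pabpc1, the cytoplasmic poly(A)-binding protein, had 14 each. Per kb of coding sequence Pabpc1 was highest of these 10 with 7.34 sites, then Nasp with 6.47, Hnrnpu with 5.83 and Eif3a with 5.21, and Mdn1 lowest with 1.01. These counts follow cluster calling at an unknown depth and were not set against the expression of the genes.

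Sites clustered within some of these coding sequences. In Eif5b all 15 sites lay between codons 28 and 430 of 1216, in Eif3a all 21 between codons 592 and 1198 of 1344, and in Mdn1 all 17 between codons 3506 and 5264 of 5589. Prrc2c (codons 54 to 2506 of 2846), Tpr (142 to 1919 of 2431) and Chd4 (42 to 1846 of 1915) had sites over a wider range, with gaps. No site lay between codons 784 and 1560 of Prrc2c or between codons 493 and 1207 of Chd4. The rule leaves out exons of 1000 bp or more and 500 bp around transcript starts, and its part in these patterns was not tested. The 2 guanines preceded 12 of 15 sites in Nasp, 12 of 17 in Mdn1 and 14 of 21 in Eif3a, but 3 of 14 in Pabpc1, 6 of 15 in Eif5b and 6 of 16 in Bod1l. Of 1466 exons with a site, 330 (22.5%) held 2 or more, with a median gap of 38 bp between neighbours. The most was 13 sites, in exon 7 of 16 of Nasp, which is 975 bp long.

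**Figure D5:**
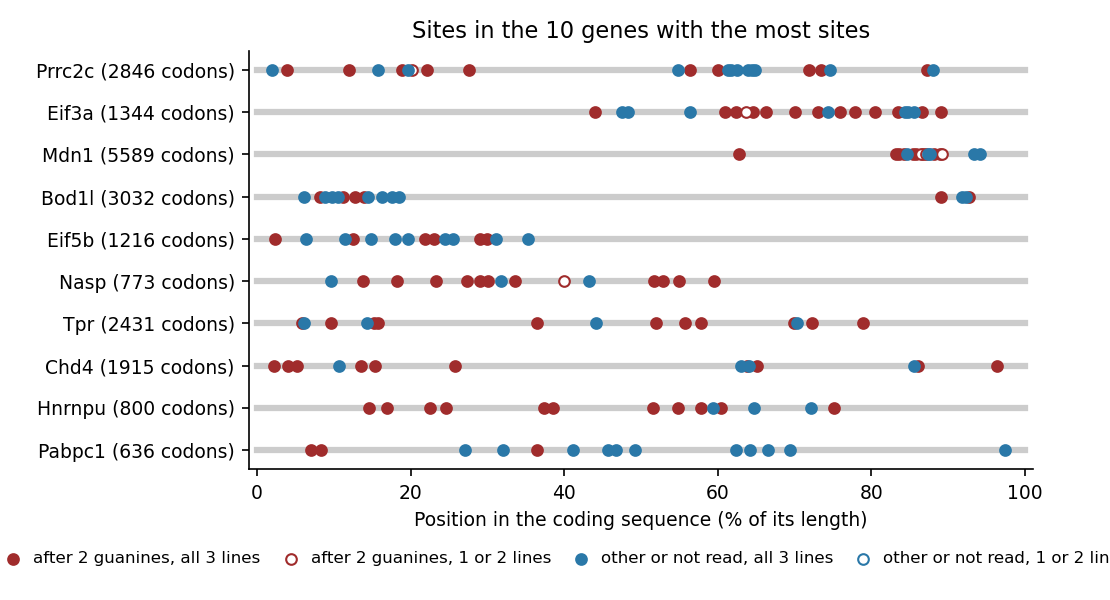
Positions of the sites (points) along the coding sequence (x axis, percent of its length) of the 10 genes with the most sites (y axis, with codons in parentheses). Red points follow 2 guanines, blue points do not or could not be read, and open points are sites missing from 1 or 2 lines, which were few. Eif5b has its sites toward the start and Mdn1 toward the end of the coding sequence.

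By gene group, the share of expressed genes with a start of this kind ran from 0.929% for zinc finger proteins to 45.5% for histone chaperones and nucleolar proteins, with a promoter cluster in E14 taken as the sign of expression. Of 11065 coding genes with an E14 promoter cluster, 737 (6.66%) also had an E14 start of this kind. The count was 10 of 22 for histone chaperones and nucleolar proteins (Nasp 15 sites, Ncl, Nop58 and Npm1 7 each), 13 of 29 for hnRNP genes (Hnrnpu 14, Hnrnpa1 11), 6 of 17 for glycolysis (Pkm 6, Aldoa 3) and 26 of 82 for cytosolic ribosomal proteins (Rps4x 8, Rpl8 and Rps6 4 each). Translation factors had 19 of 68 (Eif3a, Eif5b, Pabpc1, and Eif3c with 8), spliceosome and SR proteins 21 of 90 (Rbm25 12, Srrm1 and Srrm2 9 each), chaperones 15 of 74 (Hspd1 13, Hsp90b1 10) and the proteasome 7 of 36 (Psmd1 4). DNA replication genes had 8 of 46 (Top2a 6), the cytoskeleton 6 of 32 (Actb 3), DNA methylation 2 of 9 (Dnmt1 and Tet1, 3 sites each), pluripotency factors 5 of 23 (Klf5 3, Pou5f1 1) and genes of H3K36 methylation and elongation 4 of 19 (Supt6 6, Leo1 2). NuRD and PWWP2 partners had 2 of 14, Chd4 with 14 sites and the deacetylase Hdac1 with 1. Zinc finger proteins had 3 of 323. Gene length and expression level differ between these lists, and their part in the counts was not tested. The rule also leaves out coding starts in exons of 1000 bp or more, and exon length was not compared between the lists. A low share, as for zinc finger proteins, is therefore no measure of all coding starts. Ribosomal protein genes have many near-identical processed copies, and only uniquely mapped reads were kept, so their counts are uncertain.

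The 3 tracks list nearly the same sites. The outer limits of the clusters were identical in all lines at 1844 of the 1864 sites with 1 cluster in each, and the study's methods describe a joining of clusters into consensus peaks, so shared presence may be set in part by how the tracks were made and is no independent measure of agreement between the lines. Of 1949 sites, 1864 (95.6%) were present in E14, A1 and C7, against 97.4% of all 33324 sites of the series. The 15 sites of both clones and not E14 made up 0.770% (0.467 to 1.27%), against 0.444% of all sites, whose share lay just below that interval. The count was 27 when each line was limited to clusters whose interquantile region spanned 3 bp or more. That limit also removed narrower E14 clusters, so sites where E14 had such a cluster counted as missing from it. Of the 15, only those in Rfc1 (12 bp in each clone) and Tcof1 (7 bp in each) were that wide. The 27 are thus mostly sites that E14 held in a narrower cluster. The 3 sites of E14 alone made up 0.154%, against 0.228%. A1 alone had 16 sites (0.821%, against 0.651%) and C7 alone 23 (1.18%, against 0.321%). E14 shared 14 sites with A1 alone (0.718%, against 0.51%) and 14 with C7 alone (0.718%, against 0.471%). In long exons the 13 sites of both clones and not E14 made up 1.38%, and in 3′ untranslated regions 10 made up 0.964%. With the libraries of a line merged, no test over samples could be made, and both clones are compared with the same E14 clusters. Sites missing from a line were mostly narrow, and their tag counts are not in the clusters.

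The 15 sites of both clones lay in 15 genes of varied roles. Chromatin genes were Brd3, a BET reader of acetylated histones, the remodelling factors Ep400 and Cecr2, Supt16, a subunit of the histone chaperone FACT, and Smc3, a cohesin subunit. RNA and ribosome genes were Prrc2c, Eif3a, Rbm6, a splicing regulator, Mak16 and Tcof1, both of ribosome biogenesis. The others were the ubiquitin ligase Ubr4, the clamp loader subunit Rfc1, the lipid carrier Apoe and the junction proteins Jam2 and Afdn. Their median interquantile width was 1 bp (range 1 to 12), and 12 of the 13 with both bases in the exon followed 2 guanines. Both clones had the same dominant TSS at 13 of these sites, and at Rfc1 and Tcof1 the clones differed. Prrc2c and Eif3a each held over 20 sites in all, so their single differing site was 1 among many that the lines shared.

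The 3 sites of E14 alone lay in Pou2f1, the transcription factor OCT1, Rps16, a ribosomal protein, and Itpr3, a calcium channel of the endoplasmic reticulum. The Pou2f1 site began at the first base of exon 6 and was 7 bp wide, the Rps16 site was 2 bp wide in a retained-intron transcript, and the Itpr3 site was 1 bp wide in exon 2. The 16 sites of A1 alone and the 23 of C7 alone had a median width of 1 bp too, and 13 of 14 and 21 of 21 of those that could be read followed 2 guanines.

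At the sites of the study's displayed genes only position and width could be compared. The study marks increased intragenic initiation at Hnrnpk in the DKO lines and shows Nap1l1 and Ptges3 as PWWP2-sensitive. Those are statements on the level of initiation, which these clusters do not carry. The Hnrnpk site had its dominant TSS at 58399960 and a width of 2 bp in E14, A1 and C7. At Nap1l1 codon 105 the TSS was 111490134 in E14 and C7 but 111490114 in A1, with a width of 23 bp in each. At codon 254 it was 111492973 in E14 and C7 but 111492966 in A1, with 17 bp in each, and the other 2 sites of the gene kept their TSS. The first Ptges3 site kept its TSS with widths of 2, 3 and 2 bp in E14, A1 and C7, and the second was 21 bp wide in E14 and A1 around 128074250 but 2 bp wide in C7 around 128074251. Wtap, Pwwp2a and Pwwp2b had no site of this kind.

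All lines had exactly 1 cluster at 1864 sites (95.6%, against 97.3% of all sites). There the dominant TSS was the same base in all of them at 1138 (61.1%; 58.8 to 63.2%), against 66.3% over all clusters, and within 5 bp at 1552 (83.3%, against 83.1%). E14 matched A1 at 73.4% of sites, against 76.3%, E14 matched C7 at 75.8%, against 78.9%, and the clones matched each other at 70.4%, against 74.8%. The lowest of these 3 shares was that between the clones. Against E14 the dominant TSS of the clones could differ in either direction. The clones shared a base that was not the one of E14 at 174 sites (9.33%, against 8.47% of all clusters). At the 170 of these where every cluster met the rule, the clones' base lay downstream at 80 and upstream at 90, a median of 5 bp and at most 56 bp away, and 1 bp away at 61. Both clones are compared with the same E14 clusters, so these sites are given as examples and not as support from a second comparison.

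The first 3 of them by position are printed with the same capitals as above. They are not typical in their guanines: of the 164 sites where both positions could be read, both followed 2 guanines at 66, the E14 position alone at 27, the clones' position alone at 29 and neither at 42. The replicative helicase subunit Mcm3 (minus strand) had its dominant TSS at chromosome 1 position 20806770 in E14 and at 20806779 in both clones, the cytoskeletal linker Dst (plus strand) at 34218356 and 34218336, and the mitochondrial chaperonin Hspd1 (minus strand) at 55084579 and 55084580. Each of the 6 positions printed followed 2 guanines in the spliced transcript. Here the dominant start of the clones and that of E14 thus stood after different pairs of guanines in 1 cluster. The Dst position of the clones was base 2 of exon 53, so its first guanine ends the preceding exon, and Dst is not among the 164. At Hspd1 the 2 positions share a run of 3 guanines.
Mcm3 in E14: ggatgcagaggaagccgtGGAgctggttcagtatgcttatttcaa
Mcm3 in the clones: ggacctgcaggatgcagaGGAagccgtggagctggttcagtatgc
Dst in E14: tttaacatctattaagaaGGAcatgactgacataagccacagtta
Dst in the clones: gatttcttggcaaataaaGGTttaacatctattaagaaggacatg
Hspd1 in E14: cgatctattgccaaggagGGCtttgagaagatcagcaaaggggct
Hspd1 in the clones: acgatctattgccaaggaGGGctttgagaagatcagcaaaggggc

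The interquantile width was the same in all lines at 1425 sites (76.4%), against 59.5% over all clusters. In A1 against E14 it was wider at 183 sites (9.82%, against 20.4%) and narrower at 136 (7.30%, against 10.5%), and in C7 it was wider at 158 (8.48%, against 18.6%) and narrower at 130 (6.97%, against 10.6%). In both clones it was wider at 99 sites (5.31%, against 12.5%) and narrower at 48 (2.58%, against 3.99%). Many clusters here were at most 2 bp wide and could narrow little, and the part of this in the shares was not tested. The outer limits of the cluster were the same in all lines at 98.9% of sites, against 98.6%.

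The limits of the rule cut through a continuum. In E14, 85 clusters lay 501 to 600 bp from a transcript start, with a median width of 6 bp, and 113 that the rule left out lay 401 to 500 bp away, with 7 bp. In exons of 900 to 999 bp there were 56 clusters with a median of 7 bp, and in exons of 1000 to 1099 bp, left out, 31 with 4 bp. At 25 sites the dominant TSS of some line fell in another class, in 29 clusters of introns and 4 of promoters.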

How the data were processed

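Nuclear RNA of E14, A1 and C7 cells was profiled by nAnT-iCAGE-seq. Per the labels and the study's methods, the authors mapped reads to mm10 with STAR 2.4.2a, keeping unique end-to-end alignments, normalised tags by a power law, called and joined clusters with CAGEr and merged the libraries of each line. The order of these steps is not stated. The labels also list SAMtools 1.3 and bedtools 2.17.0. The deposited table holds 3 tracks of cluster positions, dominant TSS and interquantile blocks. Its score column is always 0, so no signal was analysed, and depth per cluster is not known.

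Clusters were classified with Python in GENCODE vM21 by the dominant TSS, which was counted from 1. The longest interquantile block gave the width. Exon number and length came from the longest exon holding the TSS, codons from a representative coding transcript, and bases from GENCODE transcripts, which covered all 1882, 1898 and 1907 clusters. Promoter bases came from RefSeq windows of GRCm38.p6. On simulated positions in coding sequence, the expected class was recovered at 60 of 60 and the coding position at 1000 of 1000. The overlap of simulated clusters was recovered at 1000 of 1000 sites. Exon distances were only checked to add up to the exon length, which holds by construction. Shares carry Wilson intervals at the 95% level, and no p-value was computed because each line is 1 merged track. In figures, markers show single counts or shares.

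Named genes were those whose profiles the study displays, Pwwp2a and Pwwp2b, the 10 with the most sites, all genes of sites in both clones and not E14 or in E14 alone, the 5 widest sites, the sites at the first base of an exon, and up to 4 examples from each of 15 gene lists. The exon of Nasp with the most sites was named after its values were seen. The members, lists and rules were chosen with earlier results of these data known. The alternatives varied the distance to annotated starts (100 or 1000 bp), the exon limit (500 bp), the transcripts used, the width minimum (3 bp) and the overlap between lines. Those on the 2 guanines were added after seeing the data.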

Additional observations from a re-analysis of the deposited data

How the results depend on the processing

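The number of clusters per line stayed within 1.5 times under 100 or 1000 bp windows, a 500 bp exon limit or protein-coding transcripts alone. Asking for an interquantile width of at least 3 bp left 1132, 1155 and 1141 clusters in E14, A1 and C7. The share in the first 10 bases of the exon became 16.2%, 16.5% and 16.6% over the first 20 bases and 8.55%, 8.94% and 9.02% with a 100 bp window. The shortest exon, a 1000 bp window and the width minimum left it inside its interval. The median width was 7 bp in E14 when the whole cluster was measured. The count of sites of both clones and not E14 went from 15 to 27 under the width minimum, where E14 clusters under 3 bp counted as missing. Against 1 clone at a time, A1 had 31 clusters that E14 lacked and C7 had 38, and E14 had 17 that A1 lacked and 17 that C7 lacked. These counts take in sites of A1 alone (0.821%, against 0.651% of all sites) and of C7 alone (1.18%, against 0.321%). They also take in sites of E14 and A1 (0.718%, against 0.51%) and of E14 and C7 (0.718%, against 0.471%). Such differences are thus found over all sites too. The counts of 15 and 3 stayed within 1.5 times under a reciprocal overlap of 50%, a gap of up to 20 bp and either window. The share with the same dominant TSS was 83.3% within 5 bp.

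The pyrimidine-purine share was 12.5%, 13.1% and 12.3% in E14, A1 and C7 at the position 1 base downstream, 7.88% in E14 and 6.48% in C7 at that 1 base upstream, and 13.2%, 12.7% and 13.1% under the width minimum. The share after 2 guanines was 58.2%, 56.8% and 58.7% under the width minimum, an alternative added after seeing the data, and 67.2% in A1 with 1 cluster per gene. It stayed in its interval without the 10 genes with the most E14 clusters and in protein-coding transcripts alone.

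No paired analysis was possible because the deposited tracks merge the numbered libraries of each line. For the same reason no library was left out in turn. Without tag counts, a start missing from a line and one below its calling limit cannot be told apart. The study's read table lists more reads for E14 than for either clone.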
